A study of Mus musculus with 12 samples.

Results

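The CXC chemokines are small secreted proteins that guide leukocytes, and 7 of their genes were examined here: Ppbp, Cxcl1, Cxcl2, Cxcl3, Pf4, Cxcl10 and Cxcl16. They were taken by name from a table of 11786 genes. All 7 of the 7 listed genes were in it, and all 7 passed the filter on low values. The genes were chosen by family, with the levels of Ppbp under tumour lysate in these same libraries known. The changes with lysate are therefore given for all 7 genes as a description with no test, and the tests below compare genotypes. For Ppbp, tests that use its lysate libraries are not independent of that choice. The 7 genes and the gene lists set beside them were chosen with earlier results of these data known. Their tests, and the counts over the lists, are thus not wholly independent of these data.

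Transcripts were measured by RNA sequencing in dendritic cells, the cells that take up antigen and show it to T cells. The cells were grown from mouse bone marrow with the cytokine GM-CSF. There were 4 groups of 2 libraries. The wild-type (wt) group alone held untreated dendritic cells of wild-type mice, and the wild-type group with lysate held the same kind of cells kept overnight with necrotic B16-OVA cells and then purified. B16-OVA is a mouse melanoma line that carries ovalbumin. The KO-labelled groups held cells of mice labelled ythdf1-/-, alone and with the same lysate. Ythdf1 encodes a cytoplasmic protein that recognises the mRNA modification N6-methyladenosine (m6A). The design text states 2 aims, to compare transcript levels in dendritic cells of wild-type and Ythdf1-/- mice and to identify mRNAs bound by Ythdf1. Only the first bears on these values, and the 4 samples of the immunoprecipitation experiment (inputs included) were not analysed here. The sources used here give neither mouse age, nor the altered part of Ythdf1, nor whether the 2 replicates of each group are 2 mice or cultures. The p-values thus set each difference against a spread between such replicates, drawn in part from all genes, that may be only technical.

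Levels are on the log2 scale of the deposited table, and a difference of 1 on it is a doubling. Errors of levels are SDs over 2 libraries, and errors of changes are standard errors of a limma fit to all genes. Sequencing depth is unknown. The transcript of Ythdf1 itself did not pass the test between genotype labels, with differences of -0.030 ± 0.081 in untreated cells (adjusted p = 0.85) and -0.16 ± 0.081 in cells given lysate (adjusted p = 0.202). The term KO-labelled is kept for this reason, and every direction between them rests on those labels. All 5 defining dendritic cell markers looked for were in the table (Itgax, Flt3, Zbtb46, H2-Ab1 and Ciita). So were all 6 defining macrophage markers and 4 of 5 defining neutrophil markers, while 0 of 11 lymphoid and 0 of 8 erythroid markers were. In such bulk samples, fewer cells of a type and less RNA per cell cannot be told apart.

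CXC chemokines act on receptors of the CXCR class on migrating cells. Ligands with a glutamate-leucine-arginine motif (ELR) ahead of the paired cysteines, such as CXCL1, CXCL2, CXCL3 and the processed product of Ppbp, attract neutrophils through CXCR2. Ligands without it serve other cells: CXCL10 attracts activated T cells and NK cells through CXCR3, and CXCL16 is made as a membrane protein that binds CXCR6 and oxidised lipid. PF4 and the product of Ppbp are best known as contents of platelet granules. Dendritic cells make several of these chemokines after contact with microbes or tissue damage.

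In the RefSeq annotation of GRCm38.p6, Cxcl5, Ppbp, Pf4, Cxcl3, Cxcl15, Cxcl1 and Cxcl2 follow each other in this order among protein-coding genes of chromosome 5, with Mthfd2l next. Cxcl10 lies elsewhere on chromosome 5 beside Art3, which it overlaps, and Cxcl9. Cxcl16 lies on chromosome 11 and overlaps Zmynd15. To show what the upstream DNA of these genes holds, the 250 bases before the start of each gene are printed from RefSeq (build GRCm38.p6) for 6 of the 7 genes, read in the direction of the gene. Cxcl16 had no match. Capitals mark the kappaB consensus, the word of interferon-stimulated response elements (GAAA, any 2 bases, GAAA) and the AP-1 word TGANTCA, each searched on both strands, and TATAAA on the strand of the gene.
Ppbp, chr5:90768268-90768517, plus strand: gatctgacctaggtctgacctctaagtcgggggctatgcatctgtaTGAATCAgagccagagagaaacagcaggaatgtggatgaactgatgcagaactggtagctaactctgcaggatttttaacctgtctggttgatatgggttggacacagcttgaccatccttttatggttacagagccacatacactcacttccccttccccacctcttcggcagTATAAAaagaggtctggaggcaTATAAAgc
Pf4, chr5:90772185-90772434, plus strand: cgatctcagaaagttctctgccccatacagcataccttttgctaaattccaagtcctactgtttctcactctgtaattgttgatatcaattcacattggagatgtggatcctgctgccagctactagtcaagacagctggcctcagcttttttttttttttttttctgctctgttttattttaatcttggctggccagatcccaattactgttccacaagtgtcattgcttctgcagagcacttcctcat
Cxcl3, chr5:90785851-90786100, plus strand: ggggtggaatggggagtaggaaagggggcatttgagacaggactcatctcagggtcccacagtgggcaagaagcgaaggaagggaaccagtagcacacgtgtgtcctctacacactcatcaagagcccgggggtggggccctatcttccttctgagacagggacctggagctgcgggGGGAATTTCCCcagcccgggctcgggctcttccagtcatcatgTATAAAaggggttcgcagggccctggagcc
Cxcl1, chr5:90890995-90891244, plus strand: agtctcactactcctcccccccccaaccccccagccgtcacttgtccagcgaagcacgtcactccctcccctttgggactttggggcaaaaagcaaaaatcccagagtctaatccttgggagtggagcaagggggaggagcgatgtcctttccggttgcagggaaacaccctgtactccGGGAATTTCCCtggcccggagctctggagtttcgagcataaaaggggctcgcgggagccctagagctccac
Cxcl2, chr5:90903649-90903898, plus strand: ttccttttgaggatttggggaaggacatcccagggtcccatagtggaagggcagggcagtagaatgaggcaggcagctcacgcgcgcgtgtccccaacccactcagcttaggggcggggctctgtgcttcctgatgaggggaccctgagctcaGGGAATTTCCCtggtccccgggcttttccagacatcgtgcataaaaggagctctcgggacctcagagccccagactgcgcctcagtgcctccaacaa
Cxcl10, chr5:92348890-92349139, minus strand: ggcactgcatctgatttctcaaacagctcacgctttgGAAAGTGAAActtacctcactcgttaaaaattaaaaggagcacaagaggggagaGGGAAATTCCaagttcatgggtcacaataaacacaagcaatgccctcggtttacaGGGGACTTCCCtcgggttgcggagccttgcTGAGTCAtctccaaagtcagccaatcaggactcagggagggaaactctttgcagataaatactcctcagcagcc

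The same kappaB word, GGGAATTTCC, read from these windows after they were seen, stood once in each of the Cxcl1, Cxcl2 and Cxcl3 windows, in bases -71 to -62, -97 to -88 and -73 to -64 from the gene start. A match of the consensus on the other strand, shifted by 1 base, overlaps it in each. Over the 32851 upstream windows of the table, 28 (0.0852%) held that word and 7.25% held the consensus. The Cxcl10 window held the consensus at bases -159 to -150 and again, in overlapping matches, from -104 to -94. It also held the interferon response word at bases -213 to -204, which 2.98% of windows held, and TGANTCA at -74 to -68, which 6.75% held. The last of these overlaps a match at -76 to -68 to TGACNNNGC, the core of the antioxidant response element, a word found in 10.2% of windows. Ppbp held TGANTCA at bases -204 to -198 and TATAAA at bases -30 to -25 and at -8 to -3, Cxcl3 at -30 to -25, and 7.59% of windows held it. Neither the kappaB consensus nor the interferon response word was found in the Ppbp and Pf4 windows. A match is only a match of letters, and binding was not measured.

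With lysate, 6 of the 7 chemokine transcripts stood higher and Cxcl16 stood lower, in wild-type and in KO-labelled cells. Over all genes 21.5% passed the threshold with lysate in wild type and 15.2% in KO-labelled cells, from which nothing is read for genes so chosen. The median change of the 7 was 0.57 in wild type and 0.54 in KO-labelled cells, beside medians over all 11785 genes tested of -0.010 and -0.0013. Between genotype labels, Cxcl2, Cxcl3 and Cxcl10 were lower in KO-labelled cells in both treatments, Pf4 was higher without lysate, and Ppbp was lower with lysate. These are the calls of the main fit. With lysate, each was lost on leaving out KO-labelled lysate replicate 1. Without lysate, the calls of Cxcl3 and Pf4 were lost in some alternatives, and those of Cxcl2 and Cxcl10 held in all. The levels of Ppbp with lysate were known when it was listed.

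**Figure D1:**
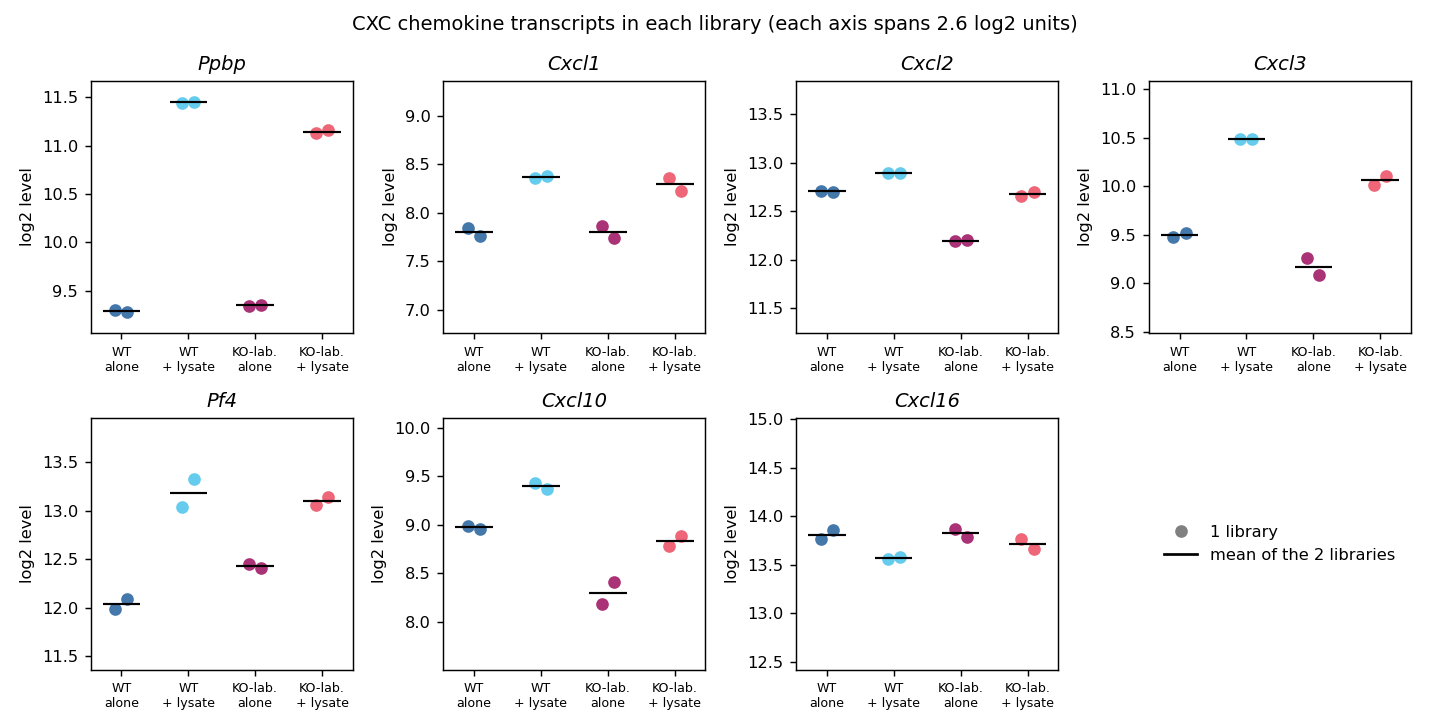
Log2 level (vertical axis) of the 7 chemokine transcripts in each of the 8 libraries, by group (horizontal axis: wild type, WT, or KO-labelled, KO-lab., alone or with lysate). Points are libraries and lines are group means. Ppbp lay between 9.28 and 9.35 in the 4 untreated libraries and between 11.12 and 11.45 in the 4 with lysate.

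Among the ELR ligands, Ppbp moved furthest. Ppbp (Entrez 57349) encodes the precursor of the neutrophil attractant CXCL7. In wild type the log2 level was 9.30 and 9.28 without lysate and 11.44 and 11.45 with it. In KO-labelled cells it was 9.35 and 9.35 without lysate and 11.12 and 11.16 with it. The treatments did not overlap in either genotype, and the KO-labelled libraries with lysate both lay below the wild-type ones. The change with lysate was 2.15 ± 0.065 in wild type and 1.79 ± 0.065 in KO-labelled cells, which is 4.45-fold and 3.46-fold. Without lysate the genotypes differed by 0.058 ± 0.065 (95% interval -0.082 to 0.20, limma adjusted p = 0.619). The levels with lysate were known when Ppbp was listed, so their test between genotypes is not independent of that choice. With lysate Ppbp was 1.24-fold lower in KO-labelled cells (-0.30 ± 0.065, limma adjusted p = 0.00922), a call lost without KO-labelled lysate replicate 1 (adjusted p = 0.134) or 2 (adjusted p = 0.0666), of a range over all alternatives of 0.00167 to 0.134.

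Cxcl3 (Entrez 330122), a close relative of Cxcl1 and Cxcl2 in the same cluster, had the next highest change among the ELR ligands. The log2 level was 9.48 and 9.52 in wild type alone and 10.49 and 10.48 in wild type with lysate. It was 9.25 and 9.08 in KO-labelled cells alone and 10.02 and 10.11 in KO-labelled cells with lysate. All 4 groups stood apart, with wild type with lysate highest and KO-labelled alone lowest. With lysate it was 1.98-fold higher in wild type (0.99 ± 0.077) and 1.86-fold higher in KO-labelled cells (0.89 ± 0.077). It was lower in KO-labelled cells by 1.26-fold without lysate (-0.33 ± 0.077, limma adjusted p = 0.0102) and by 1.34-fold with lysate (-0.42 ± 0.077, limma adjusted p = 0.00384). The first call was lost without wild-type alone replicate 2 (adjusted p = 0.0606), without KO-labelled alone replicate 2 (adjusted p = 0.0784) and in a fit of only the groups compared (adjusted p = 0.0511), of a range of 0.00145 to 0.0784. The second was lost without KO-labelled lysate replicate 1 (adjusted p = 0.0971, of a range of 0.000298 to 0.0971).

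Cxcl2 (Entrez 20310), a neutrophil attractant also called MIP-2, differed between genotype labels most clearly in untreated cells. Cxcl2 had log2 levels of 12.71 and 12.70 in wild type alone and 12.90 and 12.89 in wild type with lysate. It was 12.19 and 12.20 in KO-labelled cells alone and 12.66 and 12.70 in KO-labelled cells with lysate. KO-labelled cells alone were lowest, and KO-labelled cells with lysate overlapped wild type alone. Without lysate Cxcl2 was 1.42-fold lower in KO-labelled cells (-0.51 ± 0.061, limma adjusted p = 0.000118), a call that held in the main fit and all 17 alternatives run (adjusted p between 5.64e-06 and 0.00402). With lysate the difference was -0.22 ± 0.061 (limma adjusted p = 0.0333). That call was lost under quantile normalization (adjusted p = 0.0709), without a mean-variance trend (adjusted p = 0.0687), with a replicate block (adjusted p = 0.0668) and without any 1 of the 4 lysate libraries (adjusted p = 0.0981 to 0.27), of a range of 0.0078 to 0.27. With lysate the level was 1.14-fold higher in wild type (0.19 ± 0.061) and 1.40-fold higher in KO-labelled cells (0.48 ± 0.061).

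Cxcl1 (Entrez 14825), the neutrophil attractant KC, was higher with lysate at like levels in both genotypes. Levels of Cxcl1 on the log2 scale were 7.84 and 7.76 in wild type alone, 8.36 and 8.38 in wild type with lysate, 7.86 and 7.74 in KO-labelled cells alone and 8.36 and 8.23 in KO-labelled cells with lysate. The treatments did not overlap and the genotypes did. The change with lysate was 0.57 ± 0.087 in wild type and 0.50 ± 0.087 in KO-labelled cells. The difference between genotype labels had a 95% interval of -0.19 to 0.19 without lysate (limma adjusted p = 1) and of -0.26 to 0.11 with lysate (limma adjusted p = 0.618).

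Pf4 (Entrez 56744) encodes platelet factor 4, which has no ELR motif and binds heparan sulfate. On the log2 scale Pf4 stood at 11.99 and 12.09 in wild type alone and 13.04 and 13.33 in wild type with lysate. It was 12.45 and 12.41 in KO-labelled cells alone and 13.06 and 13.14 in KO-labelled cells with lysate. Wild type alone was lowest, KO-labelled alone next, and both lysate groups overlapped above them. With lysate it was 2.21-fold higher in wild type (1.15 ± 0.086) and 1.59-fold higher in KO-labelled cells (0.67 ± 0.086). Without lysate Pf4 was 1.31-fold higher in KO-labelled cells (0.39 ± 0.086, limma adjusted p = 0.00684), a call lost on leaving out replicate 1 of wild type alone (adjusted p = 0.0502, of a range of 0.000265 to 0.0502). With lysate the genotypes differed by -0.082 ± 0.086 (95% interval -0.27 to 0.10, limma adjusted p = 0.568).

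Cxcl10 (Entrez 15945), the interferon-inducible T cell attractant IP-10, had the lowest ratio of KO-labelled to wild type among the 7 in both treatments. Wild-type and KO-labelled levels of Cxcl10 were apart, at 8.99 and 8.96 in wild type alone and 9.43 and 9.37 in wild type with lysate. It was 8.18 and 8.41 in KO-labelled cells alone and 8.78 and 8.89 in KO-labelled cells with lysate. The 4 groups did not overlap, and both KO-labelled groups lay below both wild-type groups. Cxcl10 was 1.60-fold lower in KO-labelled cells without lysate (-0.68 ± 0.089, limma adjusted p = 0.000233), a call kept in all 17 alternatives (adjusted p between 3.2e-06 and 0.00623). With lysate it was 1.48-fold lower (-0.57 ± 0.089, limma adjusted p = 0.00145), which missed the threshold without KO-labelled lysate replicate 1 (adjusted p = 0.0522, of a range of 2.1e-05 to 0.0522). The change with lysate was 0.43 ± 0.089 in wild type and 0.54 ± 0.089 in KO-labelled cells.

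Cxcl16 (Entrez 66102), the membrane-bound ligand of CXCR6, was the 1 gene of the 7 that stood lower with lysate. Cxcl16 had log2 levels of 13.76 and 13.85 in wild type alone, 13.56 and 13.58 in wild type with lysate, 13.87 and 13.79 in KO-labelled cells alone and 13.76 and 13.66 in KO-labelled cells with lysate. Wild type with lysate was lowest, and the other 3 groups lay close together. The change with lysate was -0.24 ± 0.067 in wild type and -0.12 ± 0.067 in KO-labelled cells, the latter -0.067 on leaving out replicate 2 of KO-labelled with lysate and -0.075 on leaving out replicate 1 of KO-labelled alone. Between genotype labels it differed by 0.020 ± 0.067 without lysate (95% interval -0.13 to 0.17, limma adjusted p = 0.881) and by 0.14 ± 0.067 with lysate (95% interval -0.0031 to 0.29, limma adjusted p = 0.179). Reads of Cxcl16 and of the overlapping Zmynd15 could have been shared in the counting, and Zmynd15 was higher in KO-labelled cells by 0.40 ± 0.088 without lysate (limma adjusted p = 0.00721) and 0.34 ± 0.088 with lysate (limma adjusted p = 0.0235).

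**Figure D2:**
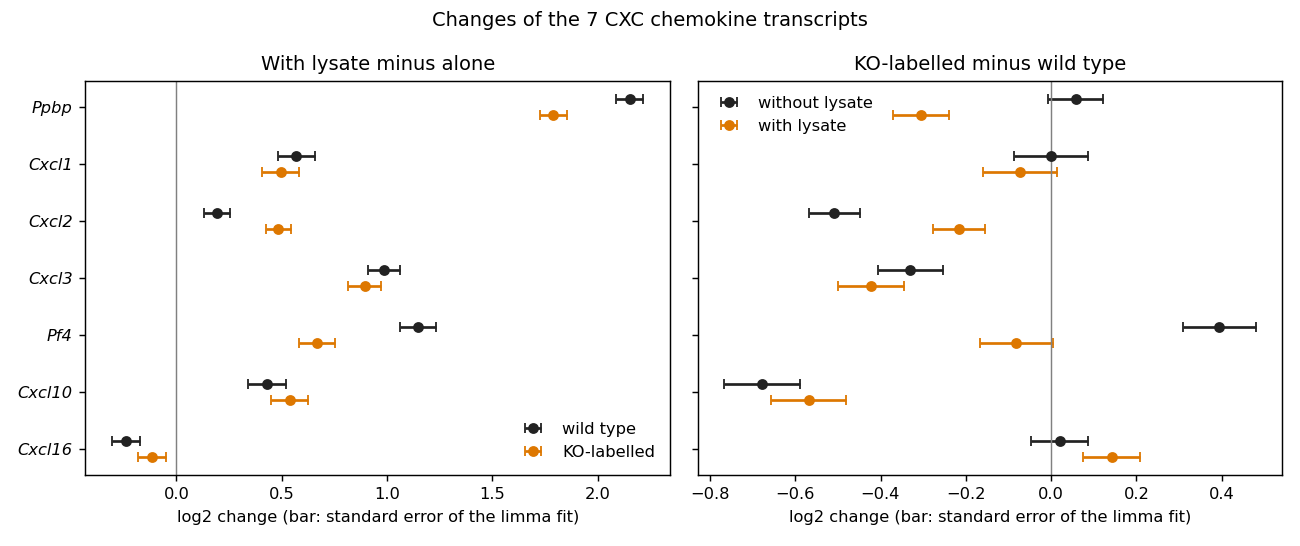
Log2 changes (horizontal axis) of the 7 chemokine transcripts (vertical axis), with lysate against alone in each genotype (left) and KO-labelled minus wild type for each treatment (right). Points are estimates and bars are standard errors of the limma fit. Ppbp lies at 2.15 and 1.79 on the left, and Cxcl10 at -0.68 and -0.57 on the right.

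Counted over the 7 genes, 3 were lower and 1 was higher in KO-labelled cells without lysate, where 16.2% of all genes tested passed in either direction, 9.23% lower and 7.02% higher. With lysate 4 were lower and 0 higher, where 12.9% of all genes passed, 5.45% lower and 7.44% higher. All 4 of these calls were lost on leaving out KO-labelled lysate replicate 1. With 1 library left out at a time, the differences stayed between -0.32 and -0.29 for Ppbp and -0.24 and -0.19 for Cxcl2. They stayed between -0.47 and -0.38 for Cxcl3 and -0.62 and -0.51 for Cxcl10. Ppbp, among the 4, was listed with its levels under lysate known. The median difference of the 7 was -0.0001 without lysate and -0.22 with lysate, beside 0.0022 and -0.0085 over all genes. These 2 comparisons share no library, and each shares its libraries with the lysate changes. The genotype contrasts rest on 2 libraries per group, and without KO-labelled lysate replicate 1 only 193 genes passed with lysate in place of 1519.

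The lysate change itself was compared between genotype labels by the interaction term. It was smaller in KO-labelled cells by 0.36 for Ppbp (-0.36 ± 0.092, limma adjusted p = 0.282) and by 0.48 for Pf4 (-0.48 ± 0.12, limma adjusted p = 0.282), and larger for Cxcl2 (0.29 ± 0.086, limma adjusted p = 0.347). None of the 7 passed the limma threshold, while these 3 had an unadjusted p under 0.05. For Ppbp the term uses the lysate levels known when it was listed, so it is not independent of that choice. Over all genes 13 passed (0.11%) and 980 had an unadjusted p under 0.05. Intervals of 95% for the difference were -0.56 to -0.16 for Ppbp, -0.74 to -0.22 for Pf4 and 0.11 to 0.48 for Cxcl2. For Cxcl1, Cxcl3, Cxcl10 and Cxcl16 the estimates lay between -0.093 and 0.12 and each interval held 0. An exchanged pairing of replicates, chosen after the data were seen, put Pf4 past the threshold (adjusted p = 0.0232, of a range of 0.0232 to 0.938).

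Levels of different genes were compared per length, as log2 level per kilobase of the longest GENCODE transcript of each gene. Pf4 was highest in all 4 groups, at 12.80 ± 0.067 (SD, n = 2) in wild type alone and 13.95 ± 0.21 with lysate. Cxcl16 was next in each group and Cxcl2 the third, at 12.38 ± 0.062 and 11.81 ± 0.011 in wild type alone. Ppbp stood at 9.18 ± 0.013 in wild type alone, below Cxcl3 at 9.48 ± 0.031, and at 11.33 ± 0.0036 with lysate, above Cxcl3 at 10.46 ± 0.0014. In KO-labelled cells Ppbp stood above Cxcl3 in both treatments, at 9.24 ± 0.0061 against 9.15 ± 0.12 without lysate, which did not differ beyond their spread, and at 11.03 ± 0.023 against 10.04 ± 0.065 with it. Cxcl10 and Cxcl1 held the lowest 2 places in every group, at 8.54 ± 0.021 and 7.87 ± 0.058 in wild type alone. In KO-labelled cells alone these 2 changed places, and at 7.86 ± 0.17 for Cxcl10 and 7.87 ± 0.090 for Cxcl1 they did not differ beyond their spread. Cxcl2 and Cxcl3 share transcript sequence: 61 of the 1810 words of 50 bases of the Cxcl2 transcript also occur in that of Cxcl3 (3.37%), and they make up 6.31% of the 967 words of Cxcl3. The sources used here do not say how such reads were counted. No other pair of the 7 shared a word of that length.

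By the fixed rule on likeness, the genes closest to Ppbp over the 8 libraries were Mmp19 (Pearson r 0.9985), Ctsl (0.9983) and Fabp4 (0.9981), of 573 compared. The closest to Cxcl3 were P4ha1 (0.9966), Acp5 (0.9929) and Adssl1 (0.9924), and to Pf4 they were Lat2 (0.9938), Pdgfa (0.9891) and Nkain1 (0.9827). Cxcl2 was closest to Gprc5b (0.9855), Trim30d (0.9846) and Cd93 (0.9784), and Cxcl10 to Mmp8 (0.9810), Ccr1 (0.9807) and Sgms2 (0.9780). Cxcl1 was closest to Mgll (0.9809), Ppbp (0.9809) and Fblim1 (0.9808), and Cxcl16 to Serpina3g (0.9638), Ciita (0.9604) and Cyp27a1 (0.9489). The libraries form 4 groups of 2, so these values mostly compare 4 group means and are given as a description.

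Of 8 other CXC ligand genes, Cxcl9 alone was in the table, and Cxcl5, Cxcl11, Cxcl12, Cxcl13, Cxcl14, Cxcl15 and Cxcl17 were not analysed here. Cxcl9 encodes another CXCR3 ligand, known to be induced by interferon gamma. Cxcl9 had log2 levels of 4.65 and 4.70 in wild type alone, 3.92 and 4.14 in wild type with lysate, 4.11 and 4.10 in KO-labelled cells alone and 3.97 and 3.93 in KO-labelled cells with lysate. These values are near the low end of the table, where the scale understates changes. Wild type alone stood above the other 3 groups. Cxcl9 fell with lysate in wild type (-0.65 ± 0.088, limma adjusted p = 0.000319) and was lower in KO-labelled cells without lysate (-0.57 ± 0.088, limma adjusted p = 0.000724). In untreated cells it was thus lower in KO-labelled cells as Cxcl10 was, and with lysate in wild type its sign was opposite to that of Cxcl10.

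Of 8 receptor genes for CXC ligands, 5 were measured. Cxcr2, the receptor of the ELR ligands, had log2 levels of 7.69 and 7.49 in wild type alone, 7.60 and 7.51 in wild type with lysate, 6.58 and 6.52 in KO-labelled cells alone and 6.58 and 6.66 in KO-labelled cells with lysate. All KO-labelled libraries lay below all wild-type libraries, and the treatments overlapped. Cxcr2 was lower in KO-labelled cells by 1.04 ± 0.094 without lysate (-1.04, limma adjusted p = 1.64e-05) and by 0.93 with lysate (-0.93, limma adjusted p = 0.000117). Cxcr3, the receptor of CXCL9 and CXCL10, lay near the low end of the table, fell with lysate in wild type (-0.49 ± 0.081, limma adjusted p = 0.0012) and was lower in KO-labelled cells without lysate (-0.29 ± 0.081, limma adjusted p = 0.0267). Cxcr4, the receptor of CXCL12, fell with lysate in wild type (-0.20 ± 0.065, limma adjusted p = 0.0389). Over the 5 receptors 2 fell with lysate in wild type, where 11.3% of all genes fell and 10.2% rose, and 0 passed the limma threshold in KO-labelled cells (1 of 5 had an unadjusted p under 0.05), where 6.92% fell and 8.28% rose.

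**Figure D3:**
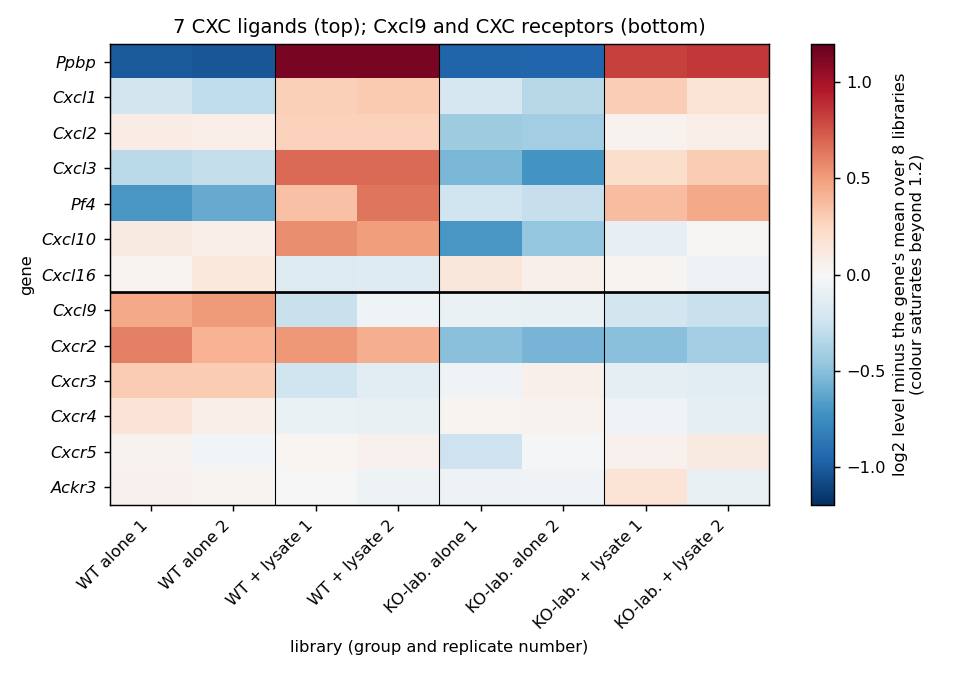
Log2 level minus the mean of each gene over the 8 libraries (colour) for the 7 chemokines, Cxcl9 and 5 receptors (vertical axis) in each library (horizontal axis). Cxcr2 is above its mean in the 4 wild-type libraries and below it in the 4 KO-labelled ones, and Ppbp divides the libraries by treatment.

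Proteases that shed or trim CXC ligands were lower in KO-labelled cells in 4 of 8 measured cases, both without and with lysate, and none was higher. Over all genes 9.23% were lower and 7.02% higher without lysate, and 5.45% lower and 7.44% higher with it. Mmp9 (gelatinase B) differed by -1.10 ± 0.097 without lysate (limma adjusted p = 1.31e-05) and Mmp8 (neutrophil collagenase) by -0.42 ± 0.078 (limma adjusted p = 0.00264). Adam17, a sheddase of membrane proteins that include CXCL16, differed by -0.44 ± 0.070 without lysate (limma adjusted p = 0.00096) and -0.32 ± 0.070 with lysate (limma adjusted p = 0.0102). With lysate in wild type 3 of the 8 rose and 2 fell, with Mmp12 (0.81), the macrophage elastase, and Mmp8 (0.42) up and Mmp9 (-0.53) down, where 21.5% of all genes passed in either direction and 15.2% did in KO-labelled cells. In KO-labelled cells 2 rose, Mmp12 (0.66) and Mmp8 (0.33), and Dpp4 (-0.28), which trims the end of CXCL10, fell. The median change of the 8 was 0.026 and 0.044 with lysate and -0.27 and -0.33 between genotypes.

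Among 6 measured proteoglycans that bind chemokines, 3 were lower in KO-labelled cells without lysate, where 9.23% of all genes were, and 2 with lysate, where 5.45% were, and none was higher. They were the syndecans Sdc1 (-0.47) and Sdc3 (-0.48) and the hyaluronan receptor Cd44 (-0.33) without lysate, and Cd44 (-0.39) and Sdc1 (-0.27) with lysate. With lysate Cd44 rose (0.30) and Gpc1 fell (-0.23) past the threshold in wild type, where 21.5% of all genes passed. Sdc1 (0.23) and Sdc3 (0.25) rose past it in KO-labelled cells, where 15.2% passed. An unadjusted limma p under 0.05 was found for 3 of the 6 in wild type and 5 in KO-labelled cells. For the interaction term 0 of the 6 passed, and 1 had an unadjusted p under 0.05. Medians were 0.0041 and 0.087 with lysate and -0.16 and -0.10 between genotypes.

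The NF-kB pathway and its targets, a list which includes known inducers of Cxcl1, Cxcl2 and Cxcl3, passed the test in both directions. Over all genes 11.3% fell and 10.2% rose with lysate in wild type, and 6.92% fell and 8.28% rose in KO-labelled cells. With lysate in wild type 7 of 20 fell and 1 rose (median -0.21), led by Ikbkg (0.48), a kinase subunit, Il1b (-0.44) and Tnfaip2 (-0.40). In KO-labelled cells 3 of 20 fell and 1 rose (median -0.058), small counts from which nothing is read. Ikbkg (0.40) was up there, and Nfkb2 (-0.37) and Relb (-0.33), subunits of the factor, were down. Between genotypes 7 were higher and 3 lower in KO-labelled cells without lysate (median 0.10), where 7.02% of all genes were higher and 9.23% lower, with Nfkbia (0.41), the inhibitor IkB alpha, and Relb (0.43) higher and Il1b (-0.85), the cytokine IL-1 beta, lower. With lysate 8 were higher and 1 lower (median 0.21), where 7.44% of all genes were higher and 5.45% lower, with Rel (0.45) and Relb (0.47) higher and Il1b (-0.34) lower.

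Of 12 regulators of chemokine mRNA decay, 0 passed the limma threshold between genotypes without lysate, where 16.2% of all genes did, and 3 of the 12 had an unadjusted p under 0.05, with Arid5a closest (-0.22, limma adjusted p = 0.0571). With lysate Zc3h12a (0.33), the RNase Regnase-1, and Zc3h12c (0.32) were higher in KO-labelled cells and Zfp36l2 (-0.27) was lower, where 7.44% of all genes were higher and 5.45% lower. With lysate in wild type Arid5a (-0.48) and Zc3h12c (-0.42) fell and Hnrnpd (0.27) rose, and in KO-labelled cells Zc3h12c (-0.32) fell, beside 21.5% and 15.2% of all genes past the threshold in either direction. Medians were 0.013 and 0.017 with lysate and 0.012 and 0.020 between genotypes.

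The interferon pathway, which induces Cxcl10, was lower in KO-labelled cells without lysate in 12 of 19 cases and higher in 2 (median -0.25), where 9.23% of all genes were lower and 7.02% higher, with Irf7 (-0.73) and Oasl2 (-0.60) down and the antiviral GTPase Mx1 (0.52) up. With lysate 3 were lower and 2 higher (median -0.042), where 5.45% of all genes were lower and 7.44% higher, with Mx1 (0.36) and Irf1 (0.30) higher and Cmpk2 (-0.30) lower. The Cxcl10 difference was -0.57 in the same libraries. With lysate 7 of 19 rose and 2 fell in wild type (median 0.11), where 10.2% of all genes rose and 11.3% fell, led by Rsad2 (0.81), Ifit3 (0.60) and Cmpk2 (0.67). In KO-labelled cells 13 rose and 1 fell (median 0.36), where 8.28% of all genes rose and 6.92% fell, led by Ifit3 (0.86), Rsad2 (0.95) and Ifit2 (0.94). Ifit3 has a near-identical copy, so its value is uncertain.

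Markers of other cells moved with some of these changes. Of 27 megakaryocyte and platelet markers other than Ppbp and Pf4, 16 were in the table. Of 10 defining ones only Itga2b, Gp1ba and Treml1 were, and the others, among them Gp1bb, Gp5, Gp6, Gp9, Tubb1 and Mmrn1, were not analysed here. With lysate 1 of 16 rose and 4 fell in wild type (median -0.054), and 1 rose and 3 fell in KO-labelled cells (median -0.030). Of all genes tested, 10.2% rose and 11.3% fell in wild type, and 8.28% rose and 6.92% fell in KO-labelled cells. Itga2b, the platelet integrin alpha IIb, went from 7.01 and 7.08 to 6.57 and 6.58 in wild type (-0.47, limma adjusted p = 0.00466). The log2 summed level of the 3 defining markers was 8.16 to 8.27 in wild type alone, 8.03 to 8.05 with lysate, 8.25 to 8.41 in KO-labelled cells alone and 8.18 to 8.19 with lysate. For all 16 it was 16.17 to 16.21, 16.19 to 16.41, 15.73 to 15.82 and 16.03 to 16.05 in the same order. That sum is mostly Thbs1, which stood at 16.08 and 16.04 in wild type alone and 15.57 and 15.65 in KO-labelled cells alone. The defining markers differed in direction: Itga2b and Gp1ba fell with lysate in both genotypes (Gp1ba by -0.31 and -0.29), while Treml1 had changes of 0.24 (limma adjusted p = 0.0952) and 0.29 (limma adjusted p = 0.0598). The part of these cells in the Ppbp and Pf4 changes was not tested.

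Neutrophil markers were lower in KO-labelled cells, 11 of 12 without lysate (median -1.35) and 12 of 12 with lysate (median -1.29). Over all genes 9.23% were lower without lysate and 5.45% with it. Cxcr2 and Mmp8 are among the neutrophil markers. Of the 5 defining ones Ly6g was not analysed here. The log2 summed level of the other 4 was 12.35 to 12.42 in wild type alone, 12.16 to 12.17 with lysate, 10.82 to 10.96 in KO-labelled cells alone and 10.64 to 10.67 with lysate. For all 12 it was 14.42 to 14.49, 14.34 to 14.49, 13.22 and 13.24 to 13.34 in that order. These markers moved with the lower Cxcl2, Cxcl3 and Cxcl10 of KO-labelled cells, and their part in those differences was not tested.

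Macrophage and monocyte markers were lower in KO-labelled cells too, 9 of 16 without lysate and 5 of 16 with lysate, and 0 were higher. Of all genes tested, 9.23% were lower and 7.02% higher without lysate, and 5.45% lower and 7.44% higher with it. The log2 summed level of the 16 macrophage and monocyte markers was 17.77 in wild type alone and 17.59 to 17.60 with lysate. It was 17.28 to 17.33 in KO-labelled cells alone and 17.29 to 17.34 with lysate. That sum is mostly Lyz2, at 17.26 and 17.24 in wild type alone and 16.68 and 16.67 in KO-labelled cells alone. For the 6 defining markers the sum was 14.97 to 15.05, 14.90, 14.71 to 14.79 and 14.71 to 14.77 in the same order of groups. The 13 measured dendritic cell markers were higher in KO-labelled cells in 6 cases and lower in 1 without lysate. In cells given lysate 8 were higher, beside the same shares of all genes. Of the 13, 8 fell with lysate in each genotype, where 11.3% of all genes fell in wild type and 6.92% in KO-labelled cells. The log2 summed level of the 13 was 17.62 to 17.76, 17.25 to 17.28, 17.75 to 17.87 and 17.37 to 17.38, from wild type alone to KO-labelled with lysate. For the 5 defining ones, of which H2-Ab1 had the highest level, it was 14.83 to 14.96, 14.43 to 14.46, 14.81 to 14.93 and 14.42 to 14.47 in that order. Sums of the 5 overlapped between genotypes in both treatments. Sums of the 13 overlapped without lysate, and with lysate they were higher in KO-labelled cells. The defining Itgax stood lower in KO-labelled cells alone (11.15 and 10.97) than in wild type alone (11.38 and 11.40). The defining Flt3 and Zbtb46 stood higher in KO-labelled cells in both treatments. The part of these cell types in the chemokine differences was not tested.

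Melanocyte and B16 markers rose with lysate in 6 of 7 measured cases and fell in 1, in each genotype (median 0.68 in wild type and 0.61 in KO-labelled cells). Beside this, 10.2% of all genes rose and 11.3% fell in wild type, and 8.28% rose and 6.92% fell in KO-labelled cells. Between genotypes with lysate, 2 of the 7 were higher in KO-labelled cells, where 7.44% of all genes were. The defining melanocyte markers in the table were Dct, Tyrp1 and Pmel. Their log2 summed level was 6.62 to 6.63 in wild type alone, 7.49 to 7.61 with lysate, 6.67 to 6.69 in KO-labelled cells alone and 7.74 to 7.86 with lysate. The defining Tyr, Mlana and Sox10 were not analysed here. For all 7, of which Gpnmb had the highest level, it was 16.18 to 16.21, 16.85 to 16.87, 16.07 to 16.13 and 16.66 to 16.69 in that order. These markers stood higher in the same libraries as the 6 chemokines, and their part in the lysate changes was not tested. Of 8 fibroblast markers 3 were measured, and all 3 were lower in KO-labelled cells without lysate, where 9.23% of all genes were. Of 9 mast cell and basophil markers 3 were measured, and 1 of them was lower there.

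**Figure D4:**
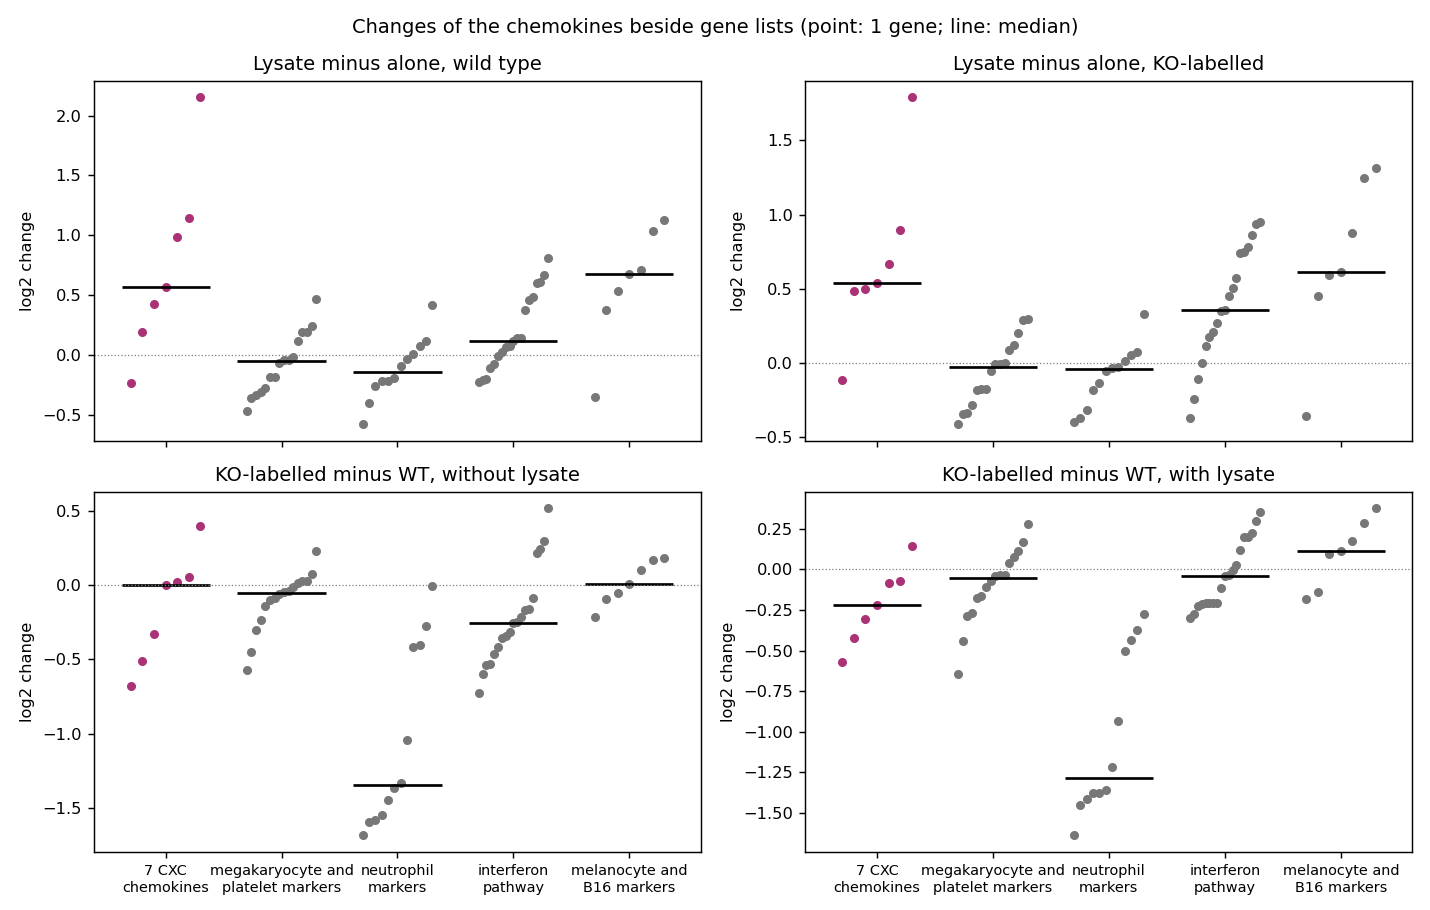
Log2 changes (vertical axis) of the 7 chemokines and of the measured genes of 4 lists (horizontal axis) in the 4 comparisons, where a point is a gene and a line is the median. Neutrophil markers have medians of -1.35 and -1.29 between genotypes, and megakaryocyte and platelet markers have medians of -0.054 and -0.030 with lysate.

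Neighbouring genes on the chromosomes were read by gene order alone. Mthfd2l, beside Cxcl2, rose with lysate in wild type (0.43 ± 0.13, limma adjusted p = 0.0334) and did not pass in KO-labelled cells (0.16 ± 0.13, limma adjusted p = 0.431) or between genotypes. Its interaction term did not pass either (-0.27 ± 0.19, limma adjusted p = 0.746). Beside Cxcl10, neither Sdad1, Nup54 nor Scarb2 passed with lysate, and Scarb2 was lower in KO-labelled cells without lysate (-0.24 ± 0.071, limma adjusted p = 0.0355). Near Cxcl16, Arrb2, which encodes the chemokine receptor adaptor beta-arrestin 2, was higher in KO-labelled cells without lysate (0.30 ± 0.062, limma adjusted p = 0.00463) and with lysate (0.22 ± 0.062, limma adjusted p = 0.0336). Also near Cxcl16, Med11 (-0.28 ± 0.083, limma adjusted p = 0.039) and Tm4sf5 (-0.43 ± 0.095, limma adjusted p = 0.00945) fell with lysate in KO-labelled cells, and neither passed in wild type (-0.17, limma adjusted p = 0.157, and -0.14, limma adjusted p = 0.303). The interaction term did not pass for Med11 (-0.11 ± 0.12, limma adjusted p = 0.853) or Tm4sf5 (-0.28 ± 0.13, limma adjusted p = 0.612).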

How the data were processed

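The deposited log2 values were read as a regularized logarithm of read counts per Entrez gene, made by the authors with DESeq2 and scaled between libraries. This is an inference from the table's name and from DESeq2, STAR, deepTools and build mm9 in the submitters' processing notes, which give no versions or roles. Library preparation used a stranded mRNA kit, per the labels' protocols. Counting tool, strand setting and annotation: not given in the sources used here. The transform pulls low genes towards their mean and understates their changes. Medians of the libraries lay between 8.53 and 8.55. No counts were at hand, so no counting error could be given.

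Symbols came from RefSeq (GRCm38.p6) for 11744 of 11786 genes. Genes with a largest group mean of at least 4 were tested (11785) with limma 3.58.1 in R 4.3.3 (group means of all 8 libraries, mean-variance trend, two-sided, Benjamini-Hochberg over all genes, threshold 0.05), with 4 residual and 9.33 prior degrees of freedom. The code was tested on simulated data. Figures used Python 3.11.15.

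The members and lists were chosen with earlier results of these data known. Genes named are the members, up to 3 genes of each pathway list with the smallest p in a contrast, and the 3 genes with the highest Pearson correlation to each member among tested genes with an SD of at least 0.3. Markers, neighbours and overlapping genes were named beside them. The 16 alternatives set out at the start were no filter or one at 6, libraries centred on a common median or quantile normalized, eBayes without the trend or robust, fitting just the libraries in a comparison, a replicate block and leaving out each of the 8 libraries. A crossed replicate block was added after the data were seen.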

Additional observations from a re-analysis of the deposited data

Results flagged for a closer look

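The lysate change differed between genotype labels for 2 genes of the lists set beside the chemokines, by the interaction term of the limma fit. Irf7, an interferon-induced transcription factor, had an interaction of 0.68 (limma adjusted p = 0.026), with a change of -0.23 in wild type and 0.45 in KO-labelled cells. Ly6c2, a monocyte surface protein with the close copy Ly6c1, so that its value is uncertain, also had an interaction of 0.68 (limma adjusted p = 0.026), with a change of -0.60 in wild type and 0.081 in KO-labelled cells.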

How the results depend on the processing

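The count of all genes past the threshold ranged, with 1 library left out at a time, from 1031 to 3154 for lysate in wild type (2534 with all libraries), 564 to 2275 for lysate in KO-labelled cells (1792), 1174 to 1865 between genotypes without lysate (1915), 193 to 2057 between genotypes with lysate (1519) and 0 to 32 for the difference of the lysate effects (13). Where 1 library was left in a group, its spread was taken to equal that of the rest. That last count was 8 with a filter at 6, 1 without a mean-variance trend and 1 with the replicate block. Between genotypes without lysate 1192 genes passed in a fit of only the groups compared. Deviations of same-numbered libraries correlated between -0.61 and 0.26, so the numbers do not pair them. The -0.61 was between the untreated wild-type and untreated KO-labelled groups, whose opposite-numbered libraries thus deviated alike. The main fit leaves this shared part in its spread, and its source was not tested. Exchanged replicate numbers of KO-labelled cells alone, tried after the data were seen, gave counts of 2919 for lysate in KO-labelled cells, 2638 between genotypes with lysate and 54 for the lysate effects' difference. The replicate block ended the call of Cxcl2 with lysate and changed no other call of the 7 chemokines. Calls of chemokines that other alternatives ended are given beside them, and no called genotype difference of the 7 changed sign. Depth is unknown, so its limits could not be set.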
